A study of Homo sapiens with 6 samples.

Results

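Tetraspanins are membrane proteins that cross the membrane 4 times and gather other proteins into clusters at the cell surface and on vesicles. The 10 members described here are CD9, CD63, CD81, CD82, CD151, TSPAN1, TSPAN3, TSPAN4, TSPAN8 and TSPAN13, chosen by gene symbol. All probe sets annotated to exactly 1 of them were kept, which gave 12 of the 22215 non-control probe sets of the table, with 2 each for TSPAN3 and TSPAN4 and 1 for every other member. They were compared between 2 human colon cancer cell lines, each measured on 3 Affymetrix arrays. HCT116 is an established colon cancer line, labelled as poorly metastatic. E1 is labelled as a metastatic line derived in vivo, and its cell line label is also HCT116. No treatment is given for either line, and each is a single line. The triplicate arrays are not tied to separate cultures by the labels, so p-values cover the spread between arrays, which may be technical.

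In the cell membrane, tetraspanins bind integrins, adhesion molecules, proteases and growth factor receptors and steer their trafficking and turnover. CD9, CD63 and CD81 are widely used markers of extracellular vesicles. CD151 is a direct partner of the laminin-binding integrins, CD82 is known as a suppressor of metastasis, and TSPAN8 was described as a surface antigen of colorectal and other carcinomas.

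No member probe set passed the test between the lines. In the limma fit over all probe sets, 0 of 12 had an adjusted p under 0.05, against 0.770% of all probe sets, 0.216% higher and 0.554% lower in E1. These were 48 and 123 probe sets, or 79 and 108 after quantile normalization and 79 and 127 with array medians subtracted. At an unadjusted p under 0.05 there were 2 of 12, TSPAN13 with a higher mean in E1 and CD82 with a lower one, against 16.5% of all probe sets, 4.75% higher and 11.7% lower. These were also the 2 whose arrays did not overlap between the lines, against 20.5% of all probe sets. The largest mean differences belonged to CD151, TSPAN4 and CD81, and there the 3 E1 arrays did not read alike: E1 array 1 lay within the HCT116 range and E1 arrays 2 and 3 lay far below it. The median log2 difference of the 12 probe sets was -0.05 and that of all probe sets -0.02, where a log2 difference is the E1 minus the HCT116 mean of log2(intensity + 32).

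**Figure D1:**
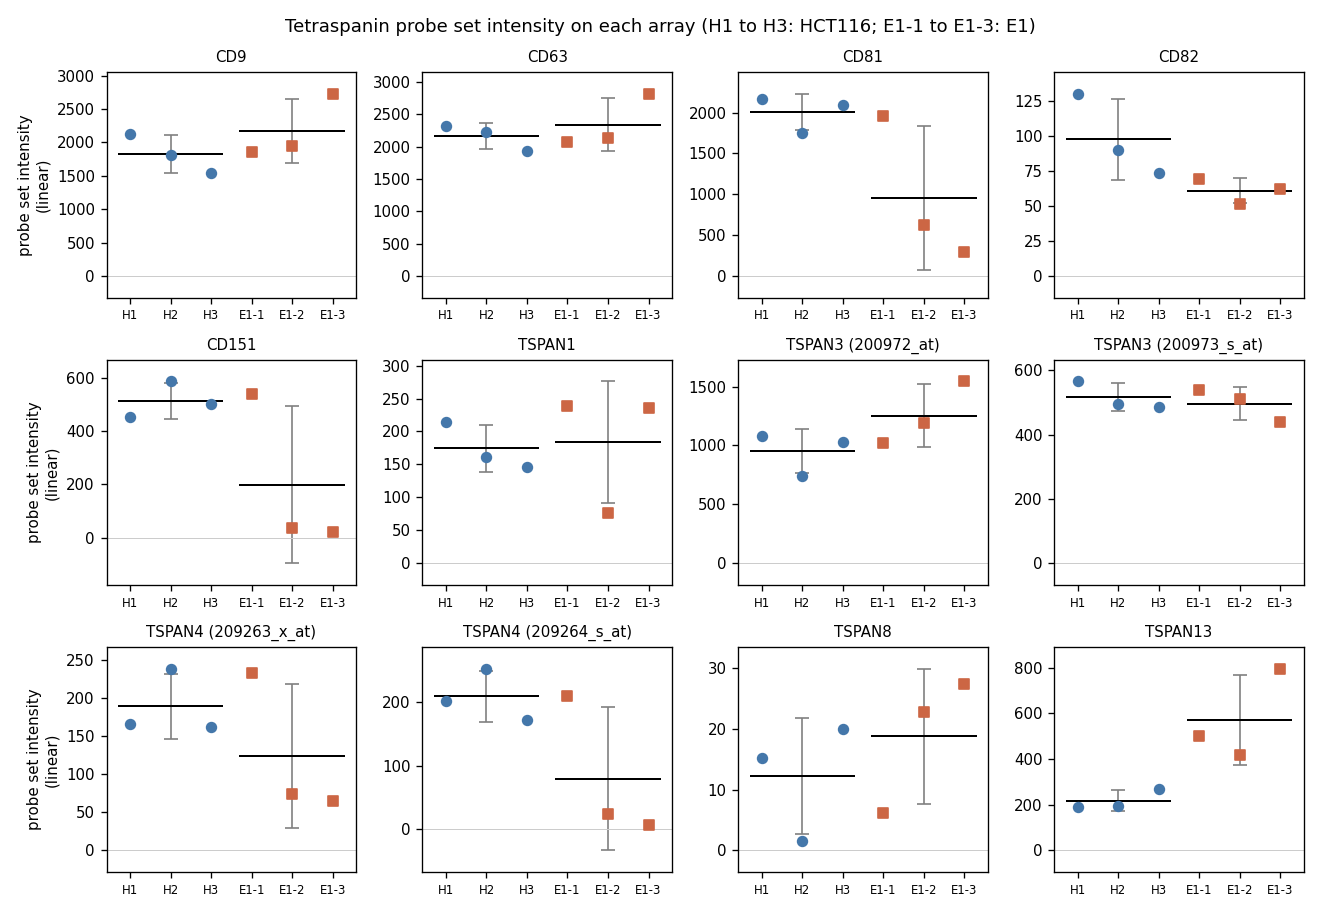
Intensity of each of the 12 tetraspanin probe sets (vertical axis, linear, scaled for each panel) on the 6 arrays (horizontal axis), HCT116 as circles and E1 as squares. Black lines are the means of a line's 3 arrays and grey bars the SD; TSPAN13 lies higher on every E1 array, whereas CD151, CD81 and both TSPAN4 probe sets are low on E1 arrays 2 and 3 only.

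The 3 E1 arrays differ in a control measure, which sets signal from the 3' end of a transcript against signal from its 5' end. The ratio of 3' to 5' signal was 0.774 to 0.811 for GAPDH and 0.930 to 1.00 for ACTB on the HCT116 arrays, and 0.803 and 1.12 on E1 array 1. It was 34.1 and 46.1 on E1 array 2 and 71.9 and 89.9 on E1 array 3. These high ratios came from low 5' signal. The 5' signal on E1 arrays 1, 2 and 3 was 8596, 210 and 94.0 for GAPDH and 4681, 158 and 65.5 for ACTB. The 3' signal on the same arrays was 6899, 7150 and 6761 for GAPDH and 5223, 7281 and 5889 for ACTB. Array medians ran from 48.1 to 66.6. The 12 epithelial markers, none of them called, summed to 18434 to 20614 in HCT116 and 11832 to 15893 in E1. At an unadjusted p under 0.05 in limma, 3 of the 12 had a lower mean in E1 and 0 a higher one, against 9.70% and 5.29% of all genes. EPCAM read 1885 to 2009 in HCT116 and 1691, 2950 and 3428 on the E1 arrays. KRT18 read 7509 to 8466 in HCT116 and 5677 to 6285 in E1. KRT8 read 3169 to 4693 in HCT116 and 2862, 372 and 103 on the E1 arrays. CLDN3 read 55.3 to 164 in HCT116 and 248, 0.784 and 2.86 on the E1 arrays. The intestinal factors CDX1 and CDX2 read 4.53 to 22.5 and villin, VIL1, 2.18 to 18.7. None of the 26 measured leukocyte, fibroblast and endothelial markers was listed at 0, and none was called. Their summed intensity was 222 to 357 in HCT116 and 359 to 379 in E1 for 9 leukocyte markers, 369.7 to 431 and 303 to 452 for 9 fibroblast markers, and 105 to 133 and 107 to 144 for 8 endothelial markers. The smallest p belonged to LAPTM5 and FCER1G, PDGFRA and COL1A2, and VWF and TEK, with log2 differences of 0.58, 0.38, 0.44, -0.29, 0.36 and 0.21, where adjusted p in limma ran from 0.182 to 0.698. The part of the control ratios and of these markers in the results was not tested, and values from E1 array 1 alone are given beside each member.

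TSPAN13 was the member with the smallest p. It read 188, 194 and 270.5 on the HCT116 arrays and 500.3, 419 and 796 on the E1 arrays. Every E1 array lay above every HCT116 array, which held for 7.45% of all probe sets. The means were 218 ± 45.8 (SD, n = 3) and 572 ± 198 (SD, n = 3), a log2 difference of 1.24 (SE 0.26, 95% confidence interval 0.61 to 1.87). In limma its unadjusted p was 0.00288 and its adjusted p 0.111, so it was not called. In RNA from bulk cultures, more cells with a transcript and more RNA per cell cannot be told apart. E1 array 1 alone gave 1.11 (SE 0.24, adjusted p = 0.288 in limma), and E1 arrays 2 and 3 alone gave 1.31 (SE 0.30, adjusted p = 0.0556 in limma). TSPAN13 thus lay above HCT116 on the E1 array with low control ratios and on both with high ones. Of the genes next to TSPAN13 on chromosome 7 in the RefSeq gene order, BZW2 stood at 0.67 and AGR2 at 0.02, neither of them called.

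CD82 had a lower mean in E1. It read 129.9, 89.9 and 73.6 on the HCT116 arrays and 69.4, 51.3 and 61.8 on the E1 arrays. The lines did not overlap, but the highest E1 array and the lowest HCT116 array were close, and E1 lay below HCT116 in this way for 13.0% of all probe sets. The means were 97.8 ± 29.0 (SD, n = 3) and 60.8 ± 9.07 (SD, n = 3), a log2 difference of -0.46 (SE 0.19, 95% confidence interval -0.92 to -0.01, adjusted p = 0.299 in limma). E1 array 1 alone gave -0.33 (SE 0.29) and E1 arrays 2 and 3 alone -0.53 (SE 0.21). The difference ran from -0.65 to -0.28 in the other settings that kept all arrays, the last with quantile normalization. Without 1 array it ran from -0.60 to -0.29, the last without HCT116 array 1. The E1 values lay near the E1 array medians of 61.3, 48.1 and 53.7. The single CD82 probe set carries the suffix _x_at, which Affymetrix gives to probe sets whose probes may also match other transcripts.

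The 250 bases before the gene start are shown for TSPAN13 and CD82, the members whose arrays did not overlap between the lines, because each has 1 start in the RefSeq promoter table (GRCh38.p14). Capitals mark GC boxes, GGGCGG on either strand, the core motif bound by SP1 and related factors. The TSPAN13 window is chr7:16753505-16753754 and the CD82 window chr11:44565413-44565662, both on the plus strand.
TSPAN13: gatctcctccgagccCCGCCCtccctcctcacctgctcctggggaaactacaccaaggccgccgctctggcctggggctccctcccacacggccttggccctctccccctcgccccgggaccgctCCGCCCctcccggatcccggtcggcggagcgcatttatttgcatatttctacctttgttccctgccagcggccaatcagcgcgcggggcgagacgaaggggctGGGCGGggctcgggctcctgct
CD82: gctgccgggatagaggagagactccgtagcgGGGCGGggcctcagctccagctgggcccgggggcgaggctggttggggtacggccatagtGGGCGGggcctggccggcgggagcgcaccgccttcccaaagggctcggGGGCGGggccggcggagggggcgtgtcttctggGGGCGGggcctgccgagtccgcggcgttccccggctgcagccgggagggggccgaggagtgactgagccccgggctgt
TSPAN13 has 3 GC boxes and CD82 has 4, and 42.6% of 35116 windows of this length hold at least 1. Neither has the TATA box TATAAA, which 10.7% of windows hold on either strand. G and C make up 70.0% of the TSPAN13 window and 77.2% of the CD82 window, against a median of 58.0%. Windows were found for 7 of the 10 members, CD9, CD63, CD82, TSPAN1, TSPAN4, TSPAN8 and TSPAN13. A GC box was present in 14 of the 22 windows of these members. A motif match describes the letters of a window and is not a measured binding site.

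Of the 12 probe sets, that of CD151 had the largest mean difference and the widest split among the E1 arrays. CD151 binds laminin-binding integrins and holds them in tetraspanin clusters. Its probe set read 452, 586 and 504 on the HCT116 arrays and 538, 35.0 and 23.5 on the E1 arrays. E1 array 1 lay inside the HCT116 range, and E1 arrays 2 and 3 were 15.4-fold and 22.9-fold below E1 array 1. The log2 difference was -2.08 (SE 0.88, adjusted p = 0.311 in limma) with all arrays, 0.07 (SE 0.20, adjusted p = 0.934) with E1 array 1 alone and -3.15 (SE 0.17, adjusted p = 0.00132) with E1 arrays 2 and 3 alone. Of all probe sets, 0.230% had a difference within E1, arrays 2 and 3 minus array 1, at least as low as that of CD151. That share counts dim probe sets, which cannot fall as far. Bright probe sets, with a mean of at least 100 over HCT116 and E1 array 1, numbered 9118. Of these, 11.8% were at least 2-fold lower on both E1 arrays 2 and 3 than on E1 array 1, and 1.80% at least 2-fold higher. Of 10 bright member probe sets, 4 were lower in this way and 0 higher. Because E1 arrays 2 and 3 were left out of that mean, probe sets bright only on them could not enter. The choice of bright probe sets thus favours lower over higher readings on these arrays, and the 2 directions cannot be weighed against each other.

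CD81, an organizer of receptor complexes and a vesicle marker, showed the same division. It read 2164, 1751 and 2098 on the HCT116 arrays and 1957, 620.4 and 296 on the E1 arrays. E1 array 1 lay inside the HCT116 range, and the other E1 arrays were 3.15-fold and 6.61-fold below E1 array 1. The log2 difference was -1.43 (SE 0.62, adjusted p = 0.324 in limma) with all arrays, -0.03 (SE 0.19) with E1 array 1 alone and -2.13 (SE 0.31, adjusted p = 0.0159) with E1 arrays 2 and 3 alone. For CD81, 1.21% of all probe sets, dim ones included, had a difference within E1 at least as low.

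Both probe sets of TSPAN4, a tetraspanin of migrasomes, which are vesicles left on the retraction fibres of migrating cells, divided the E1 arrays in the same way. The probe set 209264_s_at read 202, 252 and 172 on the HCT116 arrays and 209.0, 23.5 and 6.12 on the E1 arrays. Its counterpart 209263_x_at has the same suffix as the CD82 probe set, so its probes may also match other transcripts. That probe set read 167, 239 and 162 in HCT116 and 234, 74.2 and 65.2 in E1. Both thus read within the HCT116 range on E1 array 1 and below it on the others. With all arrays the log2 differences were -1.58 (SE 0.67, adjusted p = 0.314 in limma) for 209264_s_at and -0.64 (SE 0.41, adjusted p = 0.495) for 209263_x_at. With E1 array 1 alone they were 0.01 (SE 0.24) and 0.28 (SE 0.26), and with E1 arrays 2 and 3 alone -2.38 (SE 0.23, adjusted p = 0.00517) and -1.11 (SE 0.19, adjusted p = 0.0250).

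With E1 array 1 left out, so that only E1 arrays 2 and 3 stood for the line, 4 of 12 member probe sets were called in limma, those of CD81, CD151 and TSPAN4, all lower in E1. Of all probe sets 10.6% were called in that setting, 8.82% lower and 1.80% higher. The 4 come from 3 genes, and the 2 TSPAN4 probe sets report on 1 gene. With E1 array 1 alone 0 of 12 were called, as were 0 of all probe sets, and 1 of 12, TSPAN13, had an unadjusted p under 0.05, against 12.6% of all. CD81, CD82, CD151 and TSPAN4 lie on chromosome 11, and CD151 and TSPAN4 are separated there by 1 measured gene, POLR2L, a subunit of RNA polymerases, which stood at 0.12 with all arrays and 0.19 with E1 arrays 2 and 3 alone. PNPLA2, a lipase gene on the other side of CD151, stood at -0.10 on E1 array 1 and -1.10 on E1 arrays 2 and 3. TSSC4, next to CD81, stood at -0.41 and -1.83. On the other side of CD81, TSPAN32 stood at 0.23 and 0.07, and AP2A2, next to TSPAN4, at -0.10 and -0.35. The genes on either side of CD82 stood at 0.15 and 0.09 for ALX4 and 0.05 and 0.24 for TP53I11. A part of the chromosome position in these values was not tested.

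**Figure D2:**
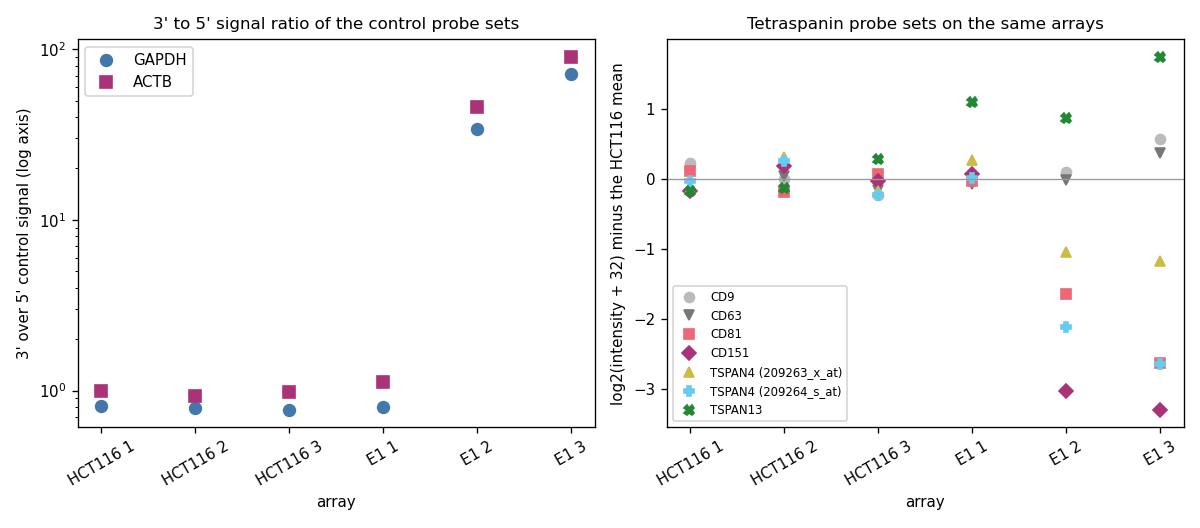
Left, 3' over 5' signal of the GAPDH and ACTB control probe sets on each array (log axis); right, log2(intensity + 32) minus the HCT116 mean for 7 tetraspanin probe sets on the same arrays. CD81, CD151 and TSPAN4 lie far below 0 on E1 arrays 2 and 3, where the GAPDH ratio is 34.1 and 71.9, while CD9 and CD63 do not and TSPAN13 lies above 0 on all E1 arrays.

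The vesicle tetraspanins CD9 and CD63 overlapped between the lines and did not pass the test. CD9, known for its part in cell fusion and motility, read 2124, 1808 and 1549 on the HCT116 arrays and 1856, 1940.3 and 2723 on the E1 arrays. The ranges overlapped, with E1 array 3 above the rest, and the log2 difference was 0.24 (SE 0.20, 95% confidence interval -0.25 to 0.72, adjusted p = 0.638 in limma). CD63, which sits mainly in late endosomes and lysosomes, read 2327, 2224 and 1939.9 in HCT116 and 2066, 2136 and 2812 in E1. The lines overlapped, with E1 array 3 again highest, and CD63 had a log2 difference of 0.10 (SE 0.16, 95% confidence interval -0.29 to 0.49, adjusted p = 0.845 in limma). With E1 array 1 alone CD9 stood at 0.03 (SE 0.23) and CD63 at -0.06 (SE 0.17). CD9 and CD63 thus did not share the low readings of CD81 on E1 arrays 2 and 3, where their log2 differences were 0.34 (SE 0.21) and 0.18 (SE 0.17).

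The 2 probe sets of TSPAN3 overlapped between the lines. The probe set 200972_at read 1083, 737 and 1029 in HCT116 and 1019.5, 1186 and 1543 in E1, a log2 difference of 0.38 (SE 0.22, adjusted p = 0.445 in limma). The probe set 200973_s_at read 565, 496 and 486 in HCT116 and 537, 511 and 439.6 in E1, a log2 difference of -0.05 (SE 0.13, 95% confidence interval -0.37 to 0.26, adjusted p = 0.904 in limma). On E1 array 3 the first lay above and the second below every HCT116 array, so the probe sets of this gene did not move together there. They stood at 0.12 (SE 0.27) and 0.060 (SE 0.16) with E1 array 1 alone.

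TSPAN1, a tetraspanin of epithelial cells, read 215, 161 and 147 in HCT116 and 238, 76.4 and 236 in E1. E1 arrays 1 and 3 lay above the HCT116 range and E1 array 2 below it, and the log2 difference was -0.04 (SE 0.38, 95% confidence interval -0.97 to 0.89, adjusted p = 0.980 in limma). Its sign followed the arrays used, at 0.40 (SE 0.24) with E1 array 1 alone and -0.26 (SE 0.40) with E1 arrays 2 and 3 alone.

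TSPAN8 read 15.2, 1.52 and 19.9 in HCT116 and 6.21, 22.9 and 27.3 in E1. All of these values lie below the median of their array, and low signals have no order among them here. Its log2 difference of 0.20 (SE 0.24, 95% confidence interval -0.39 to 0.79, adjusted p = 0.775 in limma) is limited by that low signal, and it was -0.19 (SE 0.30) with E1 array 1 alone.

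**Figure D3:**
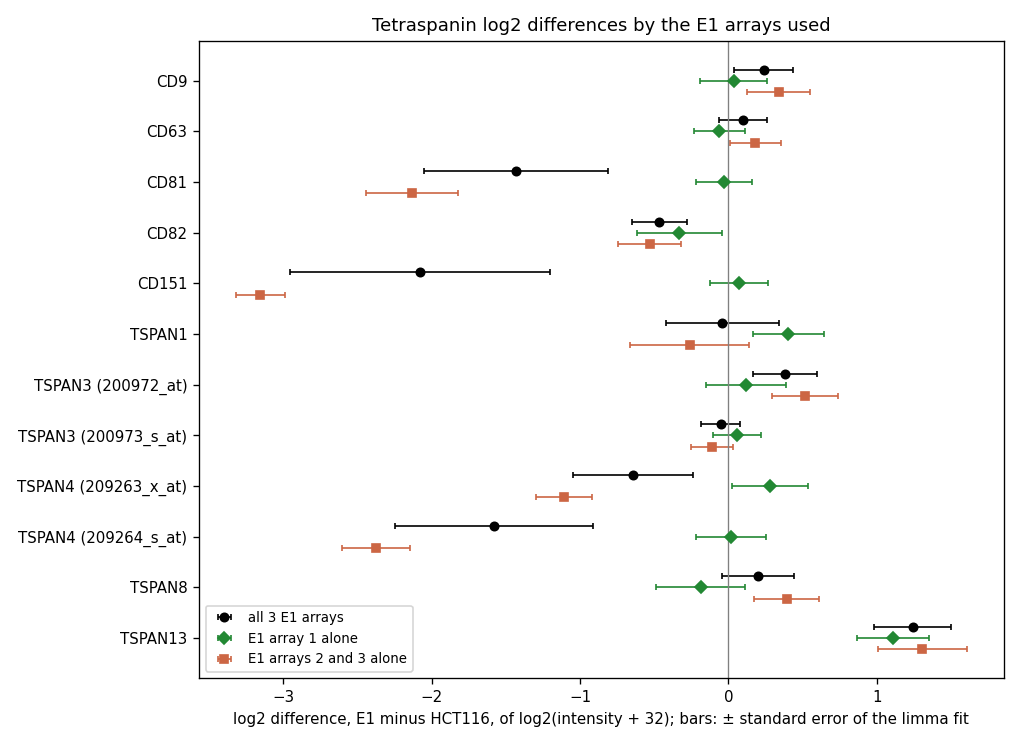
Log2 difference, E1 minus HCT116, of each tetraspanin probe set (horizontal axis) with all 3 E1 arrays, with E1 array 1 alone and with E1 arrays 2 and 3 alone; bars are ± 1 standard error of the limma fit. TSPAN13 stands at 1.24, 1.11 and 1.31, whereas CD151 stands at -2.08, 0.07 and -3.15.

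The rest of the family and its partners were counted over genes, each read from the brightest of its probe sets on average. Of 16 other measured tetraspanins 1 fell, TSPAN5, and 0 rose in limma, against 0.418% of all 11963 genes called. At an unadjusted p under 0.05, 1 had a higher and 3 had a lower mean in E1, against 5.29% and 9.70% of all genes. TSPAN5 belongs to the TspanC8 tetraspanins, which carry the metalloproteinase ADAM10 to the cell surface. It read 267, 257 and 270.1 on the HCT116 arrays and 109, 76.8 and 67.9 on the E1 arrays, so that every E1 array lay below HCT116. Its log2 difference was -1.36 (SE 0.17, adjusted p = 0.0394) over all arrays and -1.07 (adjusted p = 0.254) on E1 array 1 alone. The call was also lost in limma with an offset of 1 (adjusted p = 0.0756) or 100 (adjusted p = 0.0648) in place of 32. It was lost too with the replicate number as a block in the fit (adjusted p = 0.237), and when any 1 array other than E1 array 1 was left out. Over all probe sets, 0 were called with the block and 5 to 9 without 1 of those arrays, against 171 in the main fit. The median of the 16 was 0.08, against -0.01 for all genes.

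Of 8 integrin chains that bind tetraspanins none was called in limma, and 1, ITGA6, had an unadjusted p under 0.05, against 15.0% of all genes. The median of the 8 was -0.47 over all arrays and -0.11 on E1 array 1 alone. ITGA6, an alpha chain of laminin receptors that CD151 binds, read 352, 393 and 309 in HCT116 and 55.2, 70.4 and 145.5 in E1. Its log2 difference was -1.71 (SE 0.28, adjusted p = 0.0885 in limma). On E1 array 1, where CD151 stood at 0.07, ITGA6 stood at -2.13. ITGA4 read 10.2 to 29.7 over both lines and stood at -0.29 (SE 0.15, adjusted p = 0.424). ITGB4, the beta chain that pairs with ITGA6, and ITGA3, another alpha chain of the list, were named after their values were seen. ITGB4 read 635, 1592 and 411 in HCT116 and 1086, 46.3 and 112 in E1, and stood at -1.75 (SE 1.01, adjusted p = 0.474 in limma). ITGA3 read 419, 967 and 270 in HCT116 and 700, 67.8 and 93.0 in E1, and stood at -1.30 (SE 0.82, adjusted p = 0.511 in limma). Both showed the division of the E1 arrays also seen for CD151.

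Among 16 other tetraspanin partners, which include adhesion molecules, ADAM proteases, growth factor receptors and lipid kinases, none was called in limma, while an unadjusted p under 0.05 was reached by 2 with higher and 2 with lower means, and the median was 0.01. Over all genes 0.418% were called, and 5.29% had higher and 9.70% lower means at that unadjusted p. The hyaluronan receptor CD44 stood at 0.62 (SE 0.20, adjusted p = 0.263), with every E1 array above HCT116. The tight junction protein CLDN7 stood at -1.67 (SE 0.57, adjusted p = 0.275) over all arrays and -0.46 on E1 array 1 alone.

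Of 18 genes of exosome formation and multivesicular bodies, the route by which CD63 reaches vesicles, none was called in limma, while an unadjusted p under 0.05 was reached by 2 with higher means and 1 with a lower mean, or 3 of 18 against 15.0% of all genes, of which 0.418% were called. Their median was 0.21 over all arrays and -0.02 on E1 array 1 alone. HGS, a subunit of the sorting complex ESCRT-0, read 1956, 1272 and 1479 in HCT116 and 954, 119.6 and 99.5 in E1, a log2 difference of -2.55 (SE 0.75, adjusted p = 0.234), with -0.68 for E1 array 1 alone. FLOT1, a scaffold of membrane rafts, stood at 0.39 (SE 0.13, adjusted p = 0.277).

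**Figure D4:**
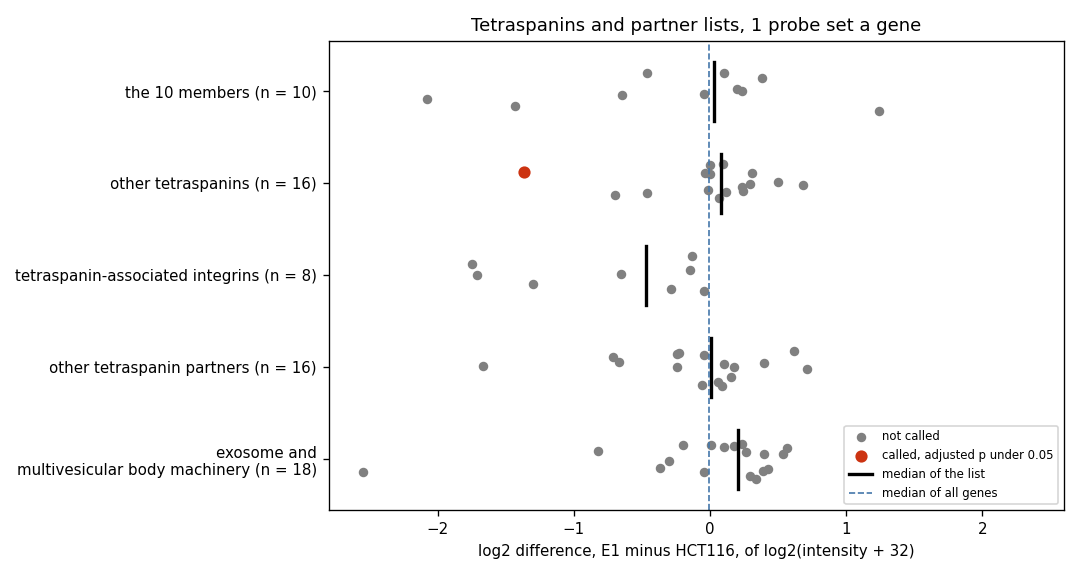
Log2 difference, E1 minus HCT116, of the tetraspanins and of 4 partner lists (horizontal axis), 1 point a gene, with vertical jitter for legibility. Black lines are list medians, from -0.47 for the integrins to 0.21 for the exosome genes, and the dashed line is the median of all genes, -0.01; TSPAN5 is the called gene.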

How the data were processed

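The table deposited by the authors holds linear intensities of 22283 probe sets. Per the labels' protocols, Trizol was used to isolate total RNA, which carried a biotin label. Summarization, background correction and scaling: not given in the sources used here. No further normalization was applied. Intensities were transformed as log2(intensity + 32), and the tests did not use the 68 control probe sets. The offset understates differences at low signal.

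Symbols came from the platform annotation. Every column belonged to 1 of the 6 arrays. E1 was compared with HCT116 by lmFit and eBayes without a trend (limma 3.58.1, R 4.3.3), two-sided. A call is a Benjamini-Hochberg adjusted p under 0.05 over 22215 probe sets, or over 11963 genes for the partner lists. The fit was tested on simulated data with the same noise on all 6 arrays, which does not cover the split among the E1 arrays. Precision is limited by the number of arrays. All members are named with all probe sets, and of each partner list up to 4 called genes or, with none, the 2 with the smallest p. The members and lists were chosen with earlier results of these data known. Promoter sequences are RefSeq's (GRCh38.p14). Alternatives covered scaling, offset, dim probe sets, variance model, replicate block, threshold, probe set choice and each array. Some results may not be reported here.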

Additional observations from a re-analysis of the deposited data

How the results depend on the processing

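The count of 0 called member probe sets held under all alternatives run except one: without 1 array it ran from 0 to 4, the 4 coming from leaving out E1 array 1. Over all probe sets the count of 171 ran from 5 to 2358 there. Over genes 0 members were called with either choice of probe set. The count of 1 called gene in the partner lists, TSPAN5, went to 0 with an offset of 1 or 100, at a threshold of 0.01, with the replicate block and with E1 array 1 alone. It went to 2, ITGA6 and TSPAN5, when the lowest 40% were left out and when the probe sets of a gene were averaged, and without 1 array it ran from 0 to 8. Whether the replicate number pairs arrays is not known. Deviations of same-numbered arrays from the mean of their line correlated at -0.04, -0.31 and -0.09. These values cannot settle it, because the E1 deviations also hold the split of E1 array 1 from E1 arrays 2 and 3. With the replicate block 0 member probe sets and 0 of all probe sets were called, against 171 without it. Uncalled members changed sign as follows. With E1 array 1 alone CD63 stood at -0.062, CD151 at 0.070, TSPAN1 at 0.40, TSPAN3 200973_s_at at 0.060, TSPAN4 209263_x_at at 0.28, TSPAN4 209264_s_at at 0.014 and TSPAN8 at -0.19. Quantile normalization gave 0.19 for TSPAN1 and 0.054 for TSPAN3 200973_s_at, and subtracting array medians gave 0.11 and 0.096. Subtracting medians moved the median of all probe sets from -0.02 to 0.13. Without 1 array CD63 ran from -0.038 to 0.18, TSPAN1 from -0.26 to 0.40 and TSPAN3 200973_s_at from -0.11 to 0.026. TSPAN13 ran from 0.99 to 1.43 without 1 array and from 1.05 to 1.39 in the other settings that kept all arrays. The cause of these changes was not tested.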

Other observations

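The other measured TspanC8 tetraspanins, chosen for this description after their values were seen, also read lower on every E1 array than on every HCT116 array, as did 13.0% of all probe sets. TSPAN14 read 737, 587 and 544 in HCT116 and 447, 403 and 278 in E1, a log2 difference of -0.70 (SE 0.21, adjusted p = 0.246 in limma over genes). TSPAN15 read 123, 112 and 109 in HCT116 and 71.3, 66.4 and 86.8 in E1, a log2 difference of -0.46 (SE 0.14, adjusted p = 0.235). With E1 array 1 alone they stood at -0.44 and -0.51. Neither was called. Their client protease ADAM10 read 705, 809.7 and 791 in HCT116 and 1159, 964 and 1850.1 in E1 on its brightest probe set, a log2 difference of 0.71 (SE 0.25, adjusted p = 0.281), with 0.36 and 0.47 for its other probe sets.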
